A study of Mus musculus with 6 samples.

Results

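Erythropoietin and the genes that let a cell sense oxygen were followed in RNA-seq libraries of mouse kidney. The set was chosen by gene symbol and holds 9 genes of the 51804 in the table. It consists of the hormone gene Epo, the alpha subunits Hif1a, Epas1 and Hif3a of the hypoxia-inducible factors (HIF), their partner Arnt, the ubiquitin ligase subunit Vhl and the oxygen-dependent prolyl hydroxylases Egln1, Egln2 and Egln3. Tests compared 3 libraries labelled knockout, from mice with floxed Ccnb1 alleles and the Cdh16-Cre transgene (Ccnb1f/f;Cdh16-Cre), with 3 control libraries from mice with the floxed alleles alone (Ccnb1f/f). Both groups thus carry the floxed gene of cyclin B1, a driver of entry into mitosis. The Cdh16 promoter is active in renal tubular epithelium, so Cre is not directed to the vessels, stroma and immune cells that whole kidney also holds. The sources used here give no age, sex or strain. Nor do the labels state whether each replicate is its own mouse, and a p-value therefore speaks only of the variation among these 6 libraries, which may be technical.

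In well-oxygenated cells the Egln enzymes hydroxylate prolines of the HIF alpha subunits, Vhl binds the hydroxylated protein, and the proteasome destroys it. When oxygen falls the alpha subunits escape, pair with Arnt and bind short DNA motifs near genes for glycolysis, vessel growth and red cell supply. In the adult kidney Epo is made by fibroblast-like interstitial cells, where Epas1 is the alpha subunit that controls it. This control acts largely on protein stability, which messenger RNA does not report.

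The libraries held 16061435 to 21261226 estimated counts each, and 15017 genes passed the filter on low counts. Ccnb1 had 18, 15 and 11 counts in the libraries labelled knockout, against 11, 17 and 7 in the controls, with no reduction, so the targeted gene does not check the labels. Proximal tubule markers summed to between 19400 and 20100 CPM (counts scaled to library size) in the libraries labelled knockout and between 17700 and 21700 CPM in the controls, and all 10 were detected. Control 2 and control 3 stood apart from the other libraries. Control 2 scored 39.8 on principal component 1, which carries 31.2% of the variance, where the rest scored -13.6 to 1.99. Control 3 scored 29.7 on component 2 (23.0%), where control 1 scored 5.29 and control 2 scored 4.58. The libraries labelled knockout scored -7.23, -18.8 and -13.5 on it, so the groups did not overlap there, and no test was made. Control 3 also held 792 CPM of the heat shock gene Hspa1a, against 13.9 to 99.4 CPM in the other 5 libraries.

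Upstream sequences are shown for the hormone gene, which was at or near 0, and for Hif3a and Egln3, whose levels varied most between libraries. Each runs over the 250 bases before a transcript start given by RefSeq (GRCm38.p6), 5′ to 3′ on the gene's strand. For Epo this is the start of the short transcripts Epo-201 and Epo-203, and the window lies within the span of the long form Epo-202. Capitals mark the core of the hypoxia response element, searched as ACGTG and GCGTG on both strands, so that CACGT and CACGC are matches on the opposite strand.
Epo (chr5:137485817-137486066, minus strand): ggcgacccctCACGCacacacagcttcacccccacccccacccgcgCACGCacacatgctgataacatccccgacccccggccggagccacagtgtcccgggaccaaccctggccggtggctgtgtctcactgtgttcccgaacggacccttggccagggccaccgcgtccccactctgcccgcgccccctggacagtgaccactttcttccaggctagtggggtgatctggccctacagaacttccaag
Hif3a (chr7:17062428-17062677, minus strand): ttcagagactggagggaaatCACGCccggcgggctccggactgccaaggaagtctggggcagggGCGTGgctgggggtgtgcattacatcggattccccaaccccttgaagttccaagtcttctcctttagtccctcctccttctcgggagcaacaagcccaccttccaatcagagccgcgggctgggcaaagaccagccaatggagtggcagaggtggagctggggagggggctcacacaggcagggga
Egln3 (chr12:54203875-54204124, minus strand): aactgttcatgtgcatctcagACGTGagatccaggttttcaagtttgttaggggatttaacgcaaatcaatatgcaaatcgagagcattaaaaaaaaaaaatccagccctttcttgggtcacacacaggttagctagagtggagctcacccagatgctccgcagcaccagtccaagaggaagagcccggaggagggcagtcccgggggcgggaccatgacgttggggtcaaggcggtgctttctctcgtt
The Epo window held GCGTG on the opposite strand at 240 and 204 bases before the start. The Hif3a window held it on the opposite strand at 230 bases and on the gene's strand at 186 bases. The Egln3 window held ACGTG at 229 bases. Across the set, 9 windows of 8 genes were available, 2 of them for Egln2, and 8 of the 9 held at least 1 core. Of all 32851 windows of this length, 38.6% held at least 1. Those windows were not matched to the set for base composition, and no test was made. A marked core shows only that these letters are present, and whether HIF binds there was not tested. The window of Vhl held none, which says only that these letters are not in those 250 bases, and Epas1 had no entry.

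None of the 8 genes of the set that could be tested differed between the groups past the threshold, and Epo was too rare to test at the expression filter. The fold changes of Egln1, Egln2, Vhl, Hif1a, Epas1 and Arnt lay within 0.10 of 0 on the log2 scale. Hif3a differed up to 11.7-fold and Egln3 up to 2.55-fold between libraries of one group. By edgeR's quasi-likelihood test with Benjamini-Hochberg adjustment over all genes (adjusted p under 0.05), 0 of 8 were called, against 0.0133% of all tested genes (2 of 15017). At an unadjusted p under 0.05 the count was also 0 of 8, against 3.23% of all genes, and DESeq2 and limma called none of them either. The CPM ranges of the groups overlapped for all 8, where they did not overlap for 8.18% of all genes. The median log2 fold change of the 8 was -0.06, and 7 of the 8 were below 0, beside a median of -0.01 over all tested genes, of which 49.0% were above 0. Leaving out a library moved the median of the 8 between -0.123 (without control 1) and -0.00363 (without control 2). A fold change here is log2 of labelled knockout over control, given with its standard error (SE) and 95% confidence interval, and the edgeR adjusted p was 0.9995 for each of the 8.

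**Figure D1:**
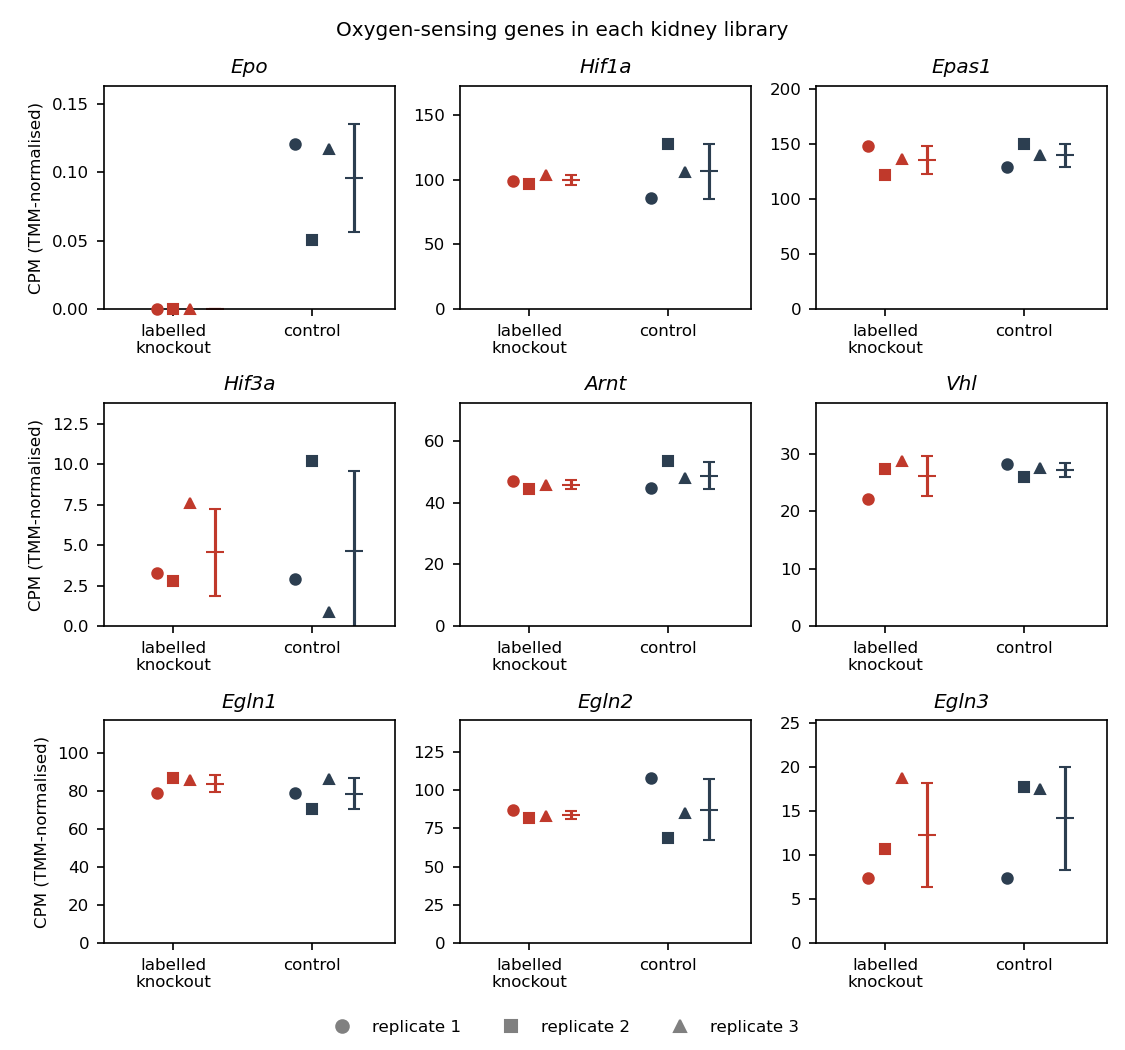
CPM (vertical axis, from 0) of each of the 9 genes in the libraries labelled knockout (red, left) and the controls (dark, right), with 1 symbol per replicate and the mean ± SD beside it. The groups overlap for every gene but Epo, which was at 0 in the libraries labelled knockout and at or below 0.121 CPM in the controls; the lower SD bar of Hif3a in the controls runs past 0 and is clipped.

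The prolyl hydroxylases differed widely in level from one another. Levels between genes were compared as FPKM, the authors' values scaled to transcript length and library size. Egln2 (chromosome 7, 27158658 to 27166802, GRCm38, as for all positions), the enzyme that hypoxia does not induce, was the most abundant of the 9 genes in every library. It averaged 41.2 ± 1.32 FPKM in the libraries labelled knockout and 42.3 ± 7.60 FPKM in the controls (SD, n = 3 each). Egln1 (chromosome 8, 124908587 to 124949324), the main hydroxylase that keeps HIF low in normal oxygen, averaged 23.4 ± 1.32 FPKM in the libraries labelled knockout and 21.7 ± 1.37 FPKM in the controls. For Egln3 (chromosome 12, 54178981 to 54203860), itself a gene that HIF switches on, the averages were 4.63 ± 2.29 FPKM in the libraries labelled knockout and 5.37 ± 2.35 FPKM in the controls. Of the summed FPKM of the 3 hydroxylases, Egln2 made up 56.5% to 63.3% in the libraries labelled knockout and 56.2% to 68.0% in the controls. Egln3 made up 4.11% to 9.90% in the libraries labelled knockout and 3.6% to 11.1% in the controls.

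Egln1 was the one tested gene of the set with a fold change above 0. It stood at 78.8, 86.9 and 85.9 CPM in the libraries labelled knockout, against 78.8, 70.5 and 86.5 CPM in the controls. Control 2 was the lowest library and the other 5 lay close together. The log2 fold change was 0.09 (SE 0.11, interval -0.16 to 0.34), so the interval runs from 0.897-fold to 1.27-fold. Egln2 stood at 87.0, 82.0 and 82.9 CPM in the libraries labelled knockout, against 108, 68.6 and 84.7 CPM in the controls. The controls held both the highest and the lowest library, and the libraries labelled knockout fell between them. Its log2 fold change was -0.05 (SE 0.16, interval -0.42 to 0.31).

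Egln3 varied more within the groups than between them. Its level was 7.36, 10.7 and 18.8 CPM in the libraries labelled knockout, against 7.41, 17.7 and 17.5 CPM in the controls. The libraries labelled knockout 1 and control 1 were the low ones, and the highest library was the one labelled knockout 3. The log2 fold change was -0.21 (SE 0.41, interval -1.15 to 0.73), an interval from 0.451-fold to 1.66-fold. Between the highest and the lowest of the 6 libraries Egln3 differed 2.55-fold, where the median tested gene differed 1.48-fold.

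Vhl (chromosome 6, 113623959 to 113631633), which recognises hydroxylated HIF for destruction, was evenly expressed. It stood at 22.2, 27.4 and 28.8 CPM in the libraries labelled knockout, against 28.2, 25.9 and 27.6 CPM in the controls. The library labelled knockout 1 was the lowest and the other 5 lay between 25.9 and 28.8 CPM. Its log2 fold change was -0.06 (SE 0.13, interval -0.36 to 0.24). In length-normalised terms Vhl averaged 9.38 ± 1.32 FPKM in the libraries labelled knockout and 9.72 ± 0.151 FPKM in the controls (SD, n = 3 each).

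**Figure D2:**
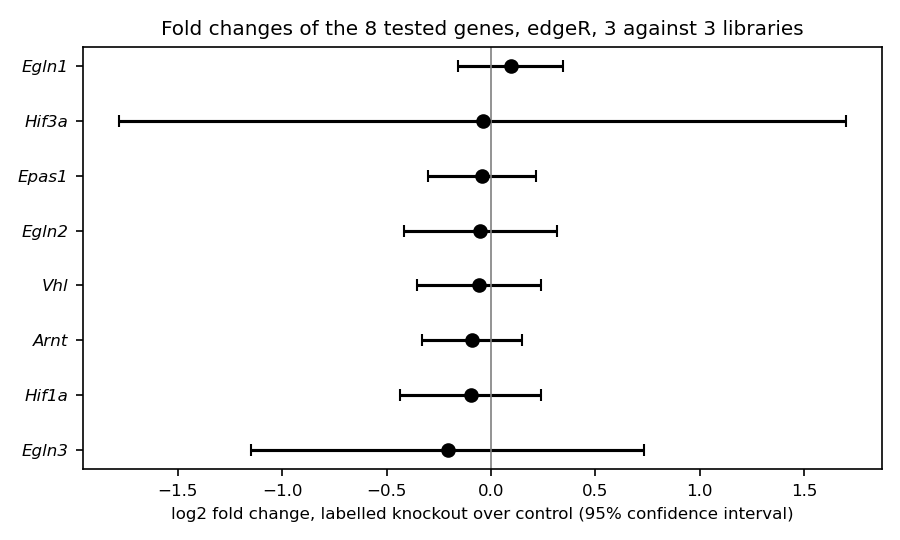
The log2 fold change of labelled knockout over control (horizontal axis) of the 8 tested genes, with 95% confidence intervals from edgeR. Every interval includes 0; those of Hif3a (-1.78 to 1.70) and Egln3 (-1.15 to 0.73) are the widest.

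Among the alpha subunits, Epas1 and Hif1a were abundant and Hif3a was rare. Epas1 (chromosome 17, 86753907 to 86833410), the subunit of endothelial and interstitial cells, stood at 148, 122 and 136 CPM in the libraries labelled knockout, against 129, 150 and 140 CPM in the controls. The library labelled knockout 2 was the lowest, and the ranges overlapped over most of their width. The log2 fold change was -0.04 (SE 0.11, interval -0.30 to 0.21). Hif1a (chromosome 12, 73901375 to 73947530), the subunit found in most cell types, stood at 99.0, 96.8 and 104 CPM in the libraries labelled knockout, against 85.8, 128 and 106 CPM in the controls. Control 1 was the lowest and control 2 the highest of the 6, and the libraries labelled knockout fell between them. Its log2 fold change was -0.10 (SE 0.15, interval -0.43 to 0.24), and 0.05 without control 2. Hif1a shares 330 exonic bases with the antisense gene Gm15283, which had at most 1 count in a library, and without known strandedness their reads cannot be told apart.

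Epas1 exceeded Hif1a in FPKM in 6 of 6 libraries, although the ranges of the 2 genes over the libraries overlapped. The ratio of Epas1 to Hif1a FPKM was 1.18 ± 0.115 in the libraries labelled knockout and 1.16 ± 0.150 in the controls (SD, n = 3 each). Epas1 averaged 25.5 ± 2.66 FPKM in the libraries labelled knockout and 26.3 ± 3.29 FPKM in the controls. Hif1a averaged 21.7 ± 1.23 FPKM in the libraries labelled knockout and 23.2 ± 5.94 FPKM in the controls. In whole kidney, fewer cells of a type and less RNA per cell cannot be told apart. Endothelial markers, beside Epas1, summed to between 563 and 762 CPM in the libraries labelled knockout and between 629 and 723 CPM in the controls, with 0 of 10 called. Eng and Plvap, surface proteins of endothelium, were at -0.14 (SE 0.19) and -0.13 (SE 0.16).

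Hif3a (chromosome 7, 17031507 to 17062427), whose splice forms include inhibitors of HIF, was the most variable gene of the set. Its estimated counts were 56, 44 and 165 for the libraries labelled knockout, against 48, 202 and 15 for the controls. In CPM these are 3.25, 2.78 and 7.61 in the libraries labelled knockout, against 2.91, 10.2 and 0.876 in the controls. Control 2 was the highest library and control 3 the lowest, and all 3 libraries labelled knockout fell between them. Hif3a differed 11.7-fold between these extremes, more than 98.8% of tested genes that were above 0 in every library. The log2 fold change was -0.04 (SE 0.76, interval -1.78 to 1.70), an interval from 0.291-fold to 3.25-fold. Without control 2 the estimate was 1.28, and without the library labelled knockout 3 it was -0.64, with no call in either fit (edgeR adjusted p = 0.9925 and 0.9999). The sign was also positive without the library labelled knockout 1 (0.15) or knockout 2 (0.20). Hif3a made up 0.984% to 3.09% of the summed FPKM of the 3 alpha subunits in the libraries labelled knockout and 0.439% to 3.19% in the controls.

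Arnt (chromosome 3, 95434388 to 95497240), a partner with which the alpha subunits bind DNA, was the steadiest gene of the set. It stood at 47.2, 44.3 and 45.8 CPM in the libraries labelled knockout, against 44.7, 53.6 and 48.1 CPM in the controls. Control 2 was the highest, and the ranges overlapped. Its log2 fold change was -0.09 (SE 0.10, interval -0.33 to 0.15). Arnt differed 1.21-fold between the highest and lowest of the 6 libraries, the smallest ratio among the 8 tested genes. In FPKM it averaged 12.8 ± 0.522 in the libraries labelled knockout and 14.3 ± 2.26 in the controls (SD, n = 3 each). As single values, the 8 tested genes gave exact two-sided permutation p of 0.4 to 0.9, where 3 against 3 cannot go below 0.1.

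**Figure D3:**
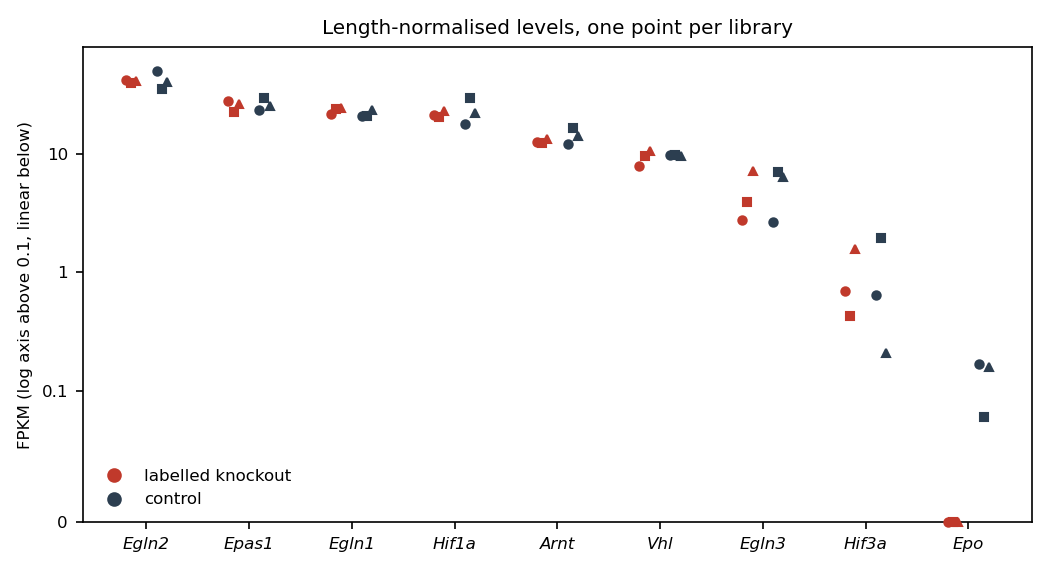
FPKM of the 9 genes (vertical axis, logarithmic above 0.1 and linear below), 1 point per library, with libraries labelled knockout in red to the left of the controls. Egln2 is highest and Epo lowest in all 6 libraries, and Epas1, Egln1 and Hif1a overlap.

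The order of the 9 genes by FPKM was almost the same in the 6 libraries. Egln2 came first, then Epas1, Egln1 and Hif1a, then Arnt, Vhl, Egln3, Hif3a and Epo. Only the places of Epas1, Egln1 and Hif1a changed, and the ranges of these 3 genes overlapped pairwise. Egln1 exceeded Epas1 in 1 of 6 libraries, the one labelled knockout 2, and Hif1a exceeded Egln1 in 1 of 6, control 2. The ranges of the other neighbours in the order did not overlap.

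Epo (chromosome 5, 137483020 to 137533242), the hormone that drives red cell formation, was at the limit of detection. It had 0 counts in each of the 3 libraries labelled knockout, among 54629122 counts, against 2, 1 and 2 counts in the controls, among 53380439. A count of 0 allows up to 3 counts, or 0.141 to 0.187 CPM in a library labelled knockout, which is above the 0.0507 to 0.121 CPM of the controls. Pooled over each group, the exact Poisson intervals were 0 to 0.0675 CPM in the libraries labelled knockout and 0.0304 to 0.219 CPM in the controls, and both cover counting error only. The groups did not overlap, which by itself gives the exact two-sided permutation p of 0.1, the smallest that 3 against 3 allows. The CPM ranges of the groups did not overlap for 8.18% of the tested genes, which do not include Epo. In fits with no filter on low values the adjusted p was 0.9412 (edgeR; unadjusted p = 0.0567) and 0.9858 (limma; unadjusted p = 0.0029). Both groups were at or under 3 counts per library, so whether they differ was not resolved at this depth and no fold change is given. The counts lay on the short transcripts Epo-203 and Epo-201, and the long form Epo-202, which shares 104 exonic bases with Gnb2, had none.

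Markers of the interstitial fibroblasts and pericytes that make Epo are set beside this. Of 11 tested, 0 were called and 9 were below 0, with a median log2 fold change of -0.39, beside a median of -0.01 over all genes. The 3 limma fits on FPKM gave medians of -0.261 to -0.216. With a library left out the median was between -0.571 (without the library labelled knockout 1) and -0.276 (without control 1). An unadjusted p under 0.05 was reached by 6 of the 11, against 3.23% of all genes. The CPM ranges of the groups did not overlap for 4 of the 11, against 8.18% of all genes. Their summed level was 419 to 558 CPM in the libraries labelled knockout and 511 to 563 CPM in the controls, and none of the 12 listed markers was at 0 in all libraries. Nt5e is a surface enzyme of these cells that proximal tubule also expresses. It was at 226 ± 94.3 CPM in the libraries labelled knockout and 199 ± 76.3 CPM in the controls. In the library labelled knockout 2 it held 332 of the summed 558 CPM. The 2 tested markers above 0 were Nt5e, at 0.18 (SE 0.36), and Rgs5, at 0.31 (SE 0.21). Rgs5 was named after its values were seen. Cxcl12, a chemokine of stromal cells, was at 101 ± 23.2 CPM in the libraries labelled knockout and 154 ± 46.8 CPM in the controls (SD, n = 3 each; log2 fold change -0.61, SE 0.23; edgeR adjusted p = 0.9995). Smooth muscle and renin cell markers, which pericytes partly share, had a median of -0.42, with 0 of 6 called and 3 of 6 at an unadjusted p under 0.05. The part of these cells in the Epo counts was not tested.

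Among genes that are known to control Epo transcription, Gata4 was too rare to test. Of 8 tested, 0 were called (median -0.04, from -0.21 to 0.03). The median was 0.00812 without the library labelled knockout 1 and -0.117 without control 1. Levels in whole kidney do not tell which cells express these genes. Hnf4a, the nuclear receptor of the Epo enhancer, was at 1360 ± 188 CPM in the libraries labelled knockout and 1330 ± 223 CPM in the controls (SD, n = 3 each; log2 fold change 0.03, SE 0.17). Its partner Rxra was at -0.06 (SE 0.14), and the coactivators Ncoa1 and Ncoa2 at -0.09 (SE 0.13) and 0.02 (SE 0.14). The retinoic acid receptor Rara had the lowest unadjusted p of those below 0 (log2 fold change -0.21, SE 0.11; unadjusted p = 0.0967). Its groups did not overlap, at 23.8 ± 0.835 CPM in the libraries labelled knockout and 27.5 ± 1.91 CPM in the controls, and it was the 1 gene of the 8 of which this holds, against 8.18% of all genes.

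The annotated transcripts of the set were read as a description, since transcripts of a gene share reads. Of 34 listed transcripts 25 had counts. Hif1a was mostly Hif1a-201, which starts at the downstream of its 2 main starts (position 73907904). The upstream form Hif1a-202 (73901375) made up 24.7%, 16.2% and 20.8% of the gene's counts in the libraries labelled knockout, against 15.6%, 19.5% and 20.4% in the controls. Hif3a was mostly the long form Hif3a-202, at 80.3% to 100% in the libraries labelled knockout and 67.6% to 91.9% in the controls. Egln2 was mostly Egln2-201, at 85.8% to 96.0% in the libraries labelled knockout and 89.3% to 91.2% in the controls. For Epas1, Vhl, Egln1 and Egln3 a single transcript took all counts.

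Shares were compared for transcripts with at least 10 counts in all, of tested genes with several listed transcripts and counts in every library. In the set these were 17 transcripts, from Hif1a, Hif3a, Arnt, Egln2 and Vhl. Epas1, Egln1 and Egln3 each have a single listed transcript and were left out. The share ranges of the groups did not overlap for 1 of the 17, against 10.1% of all such transcripts. The one Vhl transcript took 100% of its gene in every library, so its share could not differ. The transcript whose ranges did not overlap was Arnt-205, singled out after its values were seen. Its share of Arnt was 4.16%, 3.84% and 4.34% in the libraries labelled knockout, against 0%, 0% and 2.22% in the controls. It is a minor form beside Arnt-202, which made up 61.3% ± 7.47 in the libraries labelled knockout and 59.3% ± 2.34 in the controls (SD, n = 3 each), and Arnt-203, at 24.3% ± 6.09 in the libraries labelled knockout and 28.3% ± 1.72 in the controls. Arnt-205 has a spliced length of 4260 bases and Arnt-202 one of 4325, and an estimate that divides reads between such like transcripts is uncertain.

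**Figure D4:**
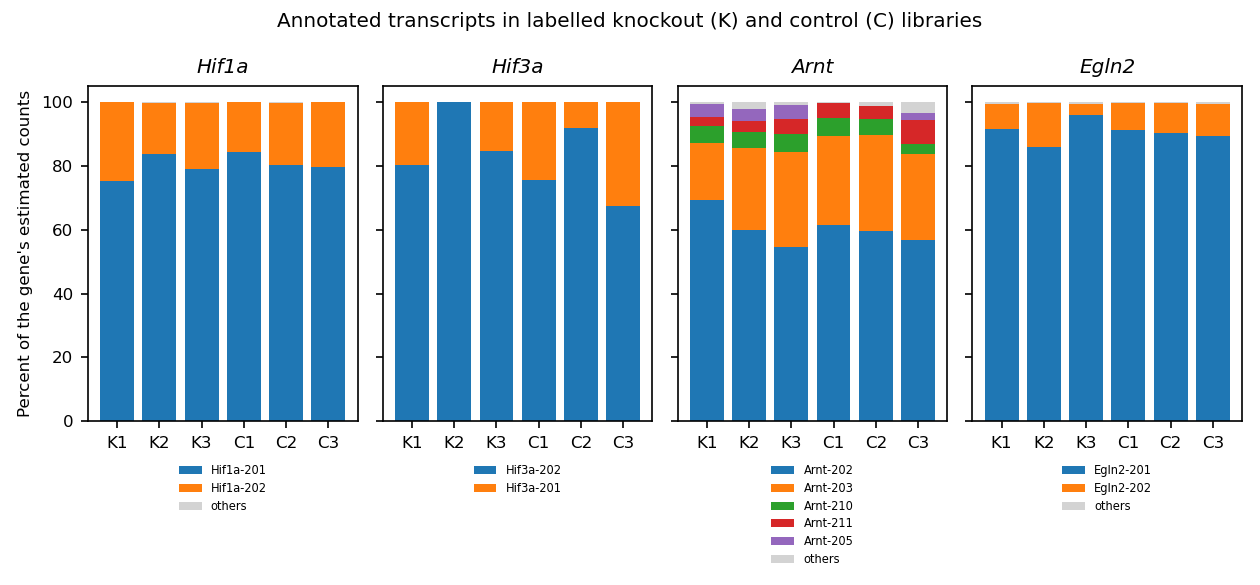
Share of each gene's estimated counts (percent, vertical axis) taken by its annotated transcripts in libraries labelled knockout (K1 to K3) and controls (C1 to C3), for the 4 genes of the set with several expressed forms. Hif1a-201, Hif3a-202, Arnt-202 and Egln2-201 lead in all 6 libraries; transcripts under 2% in every library are pooled as others.

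Genes that act beside the set in the hydroxylation and degradation of HIF gave no call either. Of 21 tested HIF partners and other sensor genes 0 were called, 6 were above 0, and the median log2 fold change was -0.04 (-0.107 without the library labelled knockout 1 and -0.00212 without control 3). The chaperones that hold immature alpha subunits, Hsp90ab1 and Hsp90aa1, were at -0.26 (SE 0.26) and -0.23 (SE 0.35). Both were highest in control 3, at 2300 and 1260 CPM, against 1080 to 1810 and 442 to 926 CPM in the other 5 libraries. Rack1, a scaffold that promotes HIF degradation, was at -0.07 (SE 0.11) and Os9, which binds prolyl hydroxylases, at -0.04 (SE 0.11). Of lowest unadjusted p were Ube2d1, a ubiquitin-conjugating enzyme, at 0.23 (SE 0.13; unadjusted p = 0.107), and Bhlhe41, a repressor that lowers HIF activity, at -0.72 (SE 0.34; unadjusted p = 0.0634). Hif1an, the asparagine hydroxylase of HIF, which was named for its role after its values were seen, stood at 63.2 ± 11.2 CPM in the libraries labelled knockout and 66.8 ± 0.999 CPM in the controls.

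Target genes of HIF were split evenly between the directions. Of 40 tested, 0 were called, 20 were above 0 and 20 below, and the median log2 fold change was -0.004, with a range of -1.23 to 0.56. The groups did not overlap for 1 of the 40 (Hilpda, a lipid droplet gene, named after its values were seen), against 8.18% of all genes. Among the most abundant, the glycolytic enzymes Ldha and Aldoa were at 808 ± 40.3 and 786 ± 92.7 CPM in the libraries labelled knockout, against 748 ± 138 and 777 ± 73.9 CPM in the controls (SD, n = 3 each). Their log2 fold changes were 0.11 (SE 0.15) and 0.02 (SE 0.13). Ndrg1, a stress gene that hypoxia induces, was at 3860 ± 2020 CPM in the libraries labelled knockout and 2870 ± 1070 CPM in the controls, and Ak4, a mitochondrial adenylate kinase, at 703 ± 246 CPM in the libraries labelled knockout and 697 ± 13.7 CPM in the controls.

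The targets of lowest unadjusted p were Pfkfb3, which makes an activator of glycolysis, and Ero1l, an oxidase of protein folding. Pfkfb3 was at 22.1 ± 6.61 CPM in the libraries labelled knockout and 30.8 ± 3.86 CPM in the controls (SD, n = 3 each; log2 fold change -0.48, SE 0.21; unadjusted p = 0.0510; edgeR adjusted p = 0.9995). Ero1l was at 50.5 ± 2.35 CPM in the libraries labelled knockout and 43.2 ± 5.12 CPM in the controls (log2 fold change 0.22, SE 0.12; unadjusted p = 0.0873). Vegfa, the vessel growth factor, was named for its role after its values were seen, and stood at -0.19 (SE 0.13), with 272 ± 25.3 CPM in the libraries labelled knockout and 310 ± 42.1 CPM in the controls.

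On the receiving side of the hormone, 17 genes of the Epo receptor and its signalling were tested and 0 were called, with a median of -0.11, 8 above 0 and 9 below. The median was 0.08 without control 2 and 0.02 with the replicate number as a block. Erfe, the hormone that red cell precursors release under Epo, was too rare to test. Epor, the receptor itself, named for its role after its values were seen, was rare and varied between libraries, at 5.22, 1.77 and 3.14 CPM in the libraries labelled knockout and 4.55, 5.47 and 1.52 CPM in the controls. The low libraries were the one labelled knockout 2 and control 3, and the ranges overlapped.

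Of the signal transducers below the receptor, Stat5b was at 0.12 (SE 0.12) and Stat5a at 0.30 (SE 0.14; unadjusted p = 0.0573). The groups did not overlap for 2 of the 17 genes, Stat5a and Csf2rb, against 8.18% of all genes. Stat5a was at 24.7 ± 2.21 CPM in the libraries labelled knockout and 20.0 ± 2.52 CPM in the controls (SD, n = 3 each). Csf2rb, a receptor subunit named after its values were seen, was at 3.69 ± 0.362 CPM in the libraries labelled knockout and 2.63 ± 0.592 CPM in the controls (log2 fold change 0.49, SE 0.25). Pik3r1, a regulatory subunit of the phosphoinositide kinase, was at -0.31 (SE 0.13; unadjusted p = 0.0438; edgeR adjusted p = 0.9995) and the adaptor Shc1 at -0.11 (SE 0.10). Cish, a feedback inhibitor that Stat5 proteins switch on, stood at 83.1, 91.5 and 27.0 CPM in the libraries labelled knockout, against 24.8, 19.3 and 321 CPM in the controls (log2 fold change -0.86, SE 1.00). Control 3 alone was far above the rest. Red cell transcripts, which can reach a kidney library with blood, summed to between 136 and 207 CPM in the libraries labelled knockout and between 145 and 229 CPM in the controls, with 0 of 5 called.

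**Figure D5:**
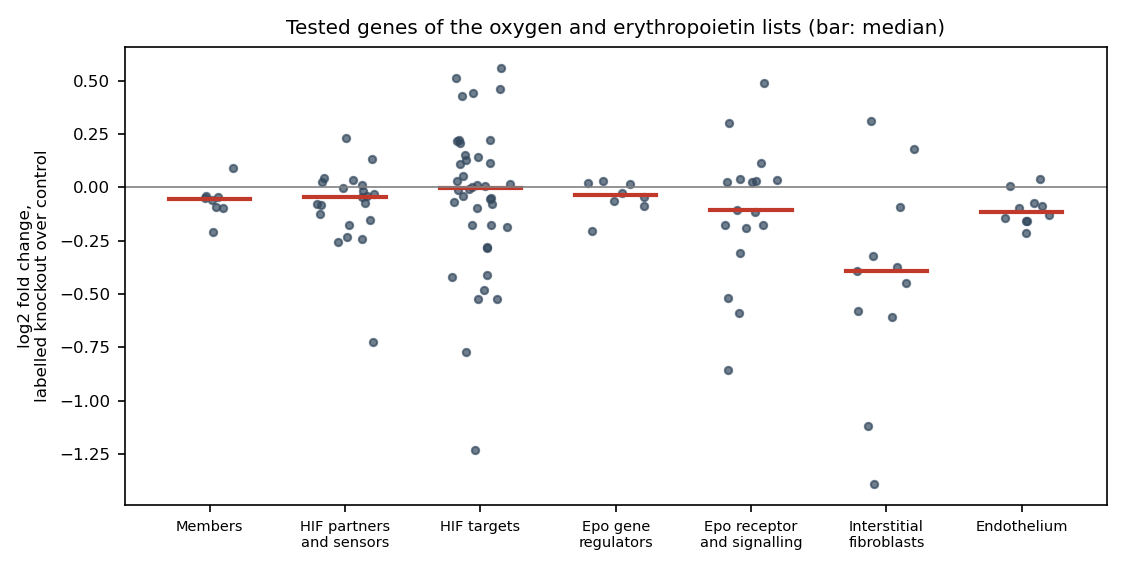
The log2 fold change of labelled knockout over control (vertical axis) of every tested gene in the set, the 4 pathway lists and the 2 marker lists set beside Epo and Epas1, with 1 point per gene and a red bar at the median. Medians lie between -0.11 and -0.004 for the set and the pathway lists, and at -0.39 for interstitial fibroblasts.

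For Hif3a and Egln3, the 2 tested genes of the set with the widest range over the libraries, the genes of most similar profile were found by the root mean square difference of centred log2(CPM + 1) over the 6 libraries. Nearest to Hif3a were Serpina10, a protease inhibitor of plasma (0.388), Rasl12 (0.397) and Pigr, the receptor that carries immunoglobulin A across epithelium (0.401). Pigr stood at 286, 294 and 455 CPM in the libraries labelled knockout, against 289, 716 and 243 CPM in the controls, so control 2 was its highest and control 3 its lowest library as well. Nearest to Egln3 were Pcdhga10 (0.155), the complement protease gene Masp2 (0.163) and the matrix proteoglycan gene Fmod (0.181). These are the closest of 15017 profiles over only 6 libraries, and no test was made.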

How the data were processed

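RNA-seq of 6 mouse kidney libraries was analysed from 1 table of 128603 transcripts. The authors deposited estimated counts per transcript, not normalized, and FPKM values. HISAT2 2.0.1, Cuffdiff 2.2.1, cutadapt 1.9.1, FastQC 0.10.1, bcl2fastq 2.17.1.14 and GRCm38 appear, without stated roles, in the submitters' processing notes. The sources used here do not give the counting program or the strandedness. For 96.8% of 6777 transcripts at 10 FPKM or more, the length implied by the deposited FPKM was within 5% of the spliced length in GENCODE M21. Deposited FPKM values were summed per gene.

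Estimated counts were summed per gene symbol, rounded and tested with edgeR 4.0.16 in R 4.3.3 (quasi-likelihood, TMM, minimum count 10, group as the only term, Benjamini-Hochberg over 15017 genes, two-sided), the fit checked on simulated data. CPM values are TMM-normalised. The depth was 16061435 to 21261226 counts, and 3 counts correspond to 0.141 to 0.187 CPM; intervals and floors cover counting error only. Alternatives were DESeq2 1.42.0, median-of-ratios factors, no filter, a replicate block, sums per Ensembl ID, limma 3.58.1 on log2(FPKM + 1) (FPKM of at least 1 in 3 libraries, or unfiltered) or log2(FPKM + 0.1), and each library left out.

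The members and lists were chosen with earlier results of these data known. Named were the members; per pathway list the called genes, the 4 most abundant and the lowest unadjusted p in each direction; and per marker list the called and the 2 most abundant. The 3 nearest profiles were named for the 2 members of widest range. The alternatives for the medians of the pathway and marker lists and of the set were chosen after seeing the data.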

Additional observations from a re-analysis of the deposited data

How the results depend on the processing

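No gene of the set and no gene of the 4 pathway lists was called under any alternative, and the lowest adjusted p of a member was 0.8887 (Hif1a). Leaving out each library gave log2 fold changes of -0.231 to 0.0547 for Hif1a, -0.114 to 0.0204 for Epas1, -0.64 to 1.28 for Hif3a, -0.15 to -0.02 for Arnt, -0.134 to 0.0463 for Vhl, 0.02 to 0.17 for Egln1, -0.20 to 0.13 for Egln2 and -0.659 to 0.0551 for Egln3, so that Arnt and Egln1 alone kept their sign. With the replicate number as a block Hif3a stood at 0.31, and with limma on log2(FPKM + 1) without a filter at 0.0297; the cause was not tested. The 2 limma fits that filter on FPKM drop Hif3a. Whether the replicate numbers pair the libraries was not settled. Deviations of same-numbered libraries correlated at 0.0900, -0.0915 and 0.116, and those of differently numbered ones at -0.17 to 0.0762. Libraries numbered 1 and 3 correlated best with their own number, and those numbered 2 did not. With 3 libraries per group such correlations cannot decide the question. The block left 2 genes called in all. Over all genes, 14 were called by DESeq2, 5 without a filter, 1 in each of the 3 limma fits, and 1 to 6 with a library left out. The median of HIF targets was -0.0812 to 0.0393 with a library left out. That of the Epo receptor list was -0.117 to 0.0775, and 0.0236 with the block. At this depth every library held fewer than 3 counts of Epo, and the cause of the low counts was not tested.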

Other observations

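Macrophage markers were above 0 in 8 of 8 tested genes, against 49.0% of all tested genes, at a median of 0.35 on the log2 scale. With a library left out the median was between 0.181 (without the library labelled knockout 1) and 0.433 (without knockout 2). By edgeR 0 were called, and 1 of the 8 was at an unadjusted p under 0.05, against 3.23% of all genes. The CPM ranges of the groups did not overlap for 2 of the 8 markers, against 8.18% of all genes. Their summed level was 140 to 187 CPM in the libraries labelled knockout and 123 to 137 CPM in the controls. Lyz2, the lysozyme of myeloid cells, was at 33.3 ± 14.4 CPM in the libraries labelled knockout and 22.3 ± 4.55 CPM in the controls (SD, n = 3 each). Csf1r, their growth factor receptor, was at 67.2 ± 6.05 CPM in the libraries labelled knockout and 61.7 ± 4.87 CPM in the controls. Smooth muscle and renin cell markers had a median of -0.42, with 5 of 6 below 0, 0 called, and 3 of 6 at an unadjusted p under 0.05, against 3.23% of all genes. That median was -0.658 without the library labelled knockout 1, -0.262 without control 1 and -0.246 with limma on log2(FPKM + 1) without a filter. Their sums were 67.3 to 87.7 CPM in the libraries labelled knockout and 89.5 to 109 CPM in the controls. Tagln, a smooth muscle actin-binding protein, was at -0.75 (SE 0.28) and the renin gene Ren1 at 0.39 (SE 0.34).

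The tubular lists had medians nearer 0, with 0 called in each. Of all genes, 3.23% reached an unadjusted p under 0.05, and the CPM ranges of the groups did not overlap for 8.18%. They did not overlap for 2 of 10 proximal tubule, 2 of 8 thick limb and distal, and 1 of 8 collecting duct genes. Aqp1 of proximal tubule (-0.33, edgeR unadjusted p = 0.0347) and Slc4a1 of collecting duct (-0.57, edgeR unadjusted p = 0.0093) were named after their values were seen. Proximal tubule was at -0.07 (Slc34a1 -0.04, Slc27a2 0.05), with 1 gene at an unadjusted p under 0.05, and between -0.189 (without control 2) and -0.000887 (without control 1) with a library left out. Thick ascending limb and distal tubule was at 0.06 (Umod 0.14, Slc12a1 0.07), with 0 such genes, and between 0.0127 (without control 1) and 0.110 (without control 2). Collecting duct was at -0.11 (Aqp2 -0.27, Hsd11b2 0.01), with 1 such gene, and between -0.203 (without control 3) and 0.0116 (without control 2), so its sign rests on control 2.

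Red cell markers had a median of -0.25 (Hba-a1 -0.26, Hbb-bs -0.10), with 0 called, which was -0.0751 without control 1 and -0.381 without the library labelled knockout 2. The median of adipose markers, -0.52 (Fabp4 -0.19, Cfd -0.56; 0 called), changed sign with a single library. It was 1.01 without control 1, -1.47 without the library labelled knockout 1, -0.106 without knockout 2, -0.194 with the replicate block and -0.138 to -0.0887 in the 3 limma fits.

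Stress and immediate early genes had a median of -0.81, with 0 of 14 called, and 0.384 without control 3, so that its sign rests on that library. With the replicate block it was -0.452. Their sums were 576 to 776 CPM in the libraries labelled knockout and 411 to 4020 CPM in the controls, the highest in control 3. Dusp1 was at -0.61 (SE 0.53) and Hspa1b at -2.08 (SE 1.11). In control 3 Socs2, a feedback inhibitor named after its values were seen, also stood at 44.6 CPM, against 5.32 to 15.5 CPM in the other 5 libraries.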
